A study of Homo sapiens with 12 samples.

Results

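Genes whose symbol starts with LINC and a number were followed through 12 RNA libraries of the Ewing sarcoma cell line TC71, a line of human tumour cells. The table held 389 such genes among 21569. The 169 with a mean of at least 0.5 CPM (reads of a gene scaled to the total of its library) over all 12 libraries are described here, and the other 220 lay below that level. The members were therefore chosen on their mean level, and a gene that is high in 1 group alone could enter through that group. The last genes inside the threshold were LINC02882, LINC01621 and LINC02861, with mean levels of 0.5058, 0.5064 and 0.5077 CPM. The first genes outside it were LINC00685, LINC02268 and LINC02055, with mean levels of 0.4937, 0.4857 and 0.4825 CPM.

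The study asked which genes depend on ID2 in Ewing sarcoma cells. Clone 1 and clone 2 are TC71 cells labelled as ID2 knockouts, the rescue cells are clone 2 cells labelled as knockout with an ID2 rescue, and the wild-type cells are TC71 with ID2 status wild-type. Each group had 3 libraries of polyadenylated RNA from cultures in DMEM and 10% fetal bovine serum, and each clone is a single line. The labels do not state whether libraries of 1 group are separate cultures, and the p-values then reflect no more than library-to-library spread, which may be technical. In bulk RNA, fewer cells with a transcript and less of it per cell cannot be told apart.

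LINC is the prefix given to long intergenic non-coding RNA genes, which lie between protein coding genes and are numbered because most have no known function. Their transcripts are often spliced and polyadenylated like mRNA, but are usually scarcer and more restricted to certain cell types. Some act on the transcription of a nearby gene, some bind proteins or small RNAs, and some host a microRNA. ID2 is a helix-loop-helix protein with no DNA-binding region of its own. It pairs with E proteins, transcription factors that recognise a short DNA motif called the E-box, and keeps them off DNA.

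Totals ran between 19420408 and 29748084 reads per library, so that 0.5 CPM stood for 9.71 to 12.9 reads in the shallowest library of a group. ID2 itself averaged 18.2 ± 0.778 CPM in clone 1, 51.5 ± 3.17 CPM in clone 2, 41.6 ± 0.55 CPM in rescue and 75.9 ± 0.397 CPM in wild-type libraries (SD, n = 3 each). The libraries labelled rescue thus held less ID2 RNA than those of clone 2, with a log2 fold change of -0.29 (adjusted p = 3.52e-06). They are called rescue libraries here as their labels do. All 10 listed Ewing sarcoma markers, CD99 and NKX2-2 among them, were in the table. Their summed level was 2830 to 2900 CPM in clone 1, 2710 to 2820 CPM in clone 2, 2340 to 2370 CPM in rescue and 2660 to 2720 CPM in wild-type libraries. Of 9 listed epithelial markers 6 were in the table, and they summed to 894 to 955 CPM in clone 1, 156 to 193 CPM in clone 2, 77.8 to 87.7 CPM in rescue and 113 to 118 CPM in wild-type libraries. All 6 were higher in clone 1 than in wild-type and 5 were higher in clone 2, and none of them was at 0 in a whole group. The 8 fibroblast markers summed to 632 to 658 CPM in clone 1, 211 to 226 CPM in clone 2, 119 to 129 CPM in rescue and 278 to 284 CPM in wild-type libraries. Of the 7 that were tested, 5 were higher and 2 lower in clone 1, and 1 was higher and 6 lower in clone 2, with PDGFRA at a mean of 0.0879 CPM in clone 1 against 8.62 CPM in wild-type. The 3 blood markers in the table, of 7 listed, summed to at most 0.988 CPM in any library, and the 1 endothelial marker, of 4 listed, to at most 0.251 CPM. The part of these markers in any result on the LINC genes was not tested.

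The promoters of 6 of the named members are given as examples, and those of other named members are not shown. LINC01134 and LINC01783 were higher in both clones than in wild-type, LINC01547 and LINC02783 were higher in clone 2 than in clone 1, and LINC00667 and LINC00526 were lower in both clones. Each window covers the gene's start and the bases upstream of it on its own strand, as RefSeq places it on GRCh38.p14. The windows lie at chr1:3900154-3900453 (plus strand) for LINC01134, chr1:16535603-16535902 (minus) for LINC01783, chr21:44939864-44940163 (minus) for LINC01547, chr1:17189539-17189838 (plus) for LINC02783, chr18:5237850-5238149 (plus) for LINC00667 and chr18:5237980-5238279 (minus) for LINC00526. Capitals mark the E-box CANNTG, read 5′ to 3′.
LINC01134: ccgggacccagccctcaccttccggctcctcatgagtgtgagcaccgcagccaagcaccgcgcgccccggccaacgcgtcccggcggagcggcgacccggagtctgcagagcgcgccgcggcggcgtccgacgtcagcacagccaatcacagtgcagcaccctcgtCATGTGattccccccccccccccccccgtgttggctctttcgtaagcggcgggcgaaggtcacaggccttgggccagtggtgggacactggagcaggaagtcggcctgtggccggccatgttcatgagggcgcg
LINC01783: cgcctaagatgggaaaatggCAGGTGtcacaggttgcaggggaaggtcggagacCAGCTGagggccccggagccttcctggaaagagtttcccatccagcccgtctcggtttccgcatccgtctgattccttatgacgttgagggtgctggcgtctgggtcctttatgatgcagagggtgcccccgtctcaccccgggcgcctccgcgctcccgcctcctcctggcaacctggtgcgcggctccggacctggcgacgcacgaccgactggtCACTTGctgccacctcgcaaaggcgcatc
LINC01547: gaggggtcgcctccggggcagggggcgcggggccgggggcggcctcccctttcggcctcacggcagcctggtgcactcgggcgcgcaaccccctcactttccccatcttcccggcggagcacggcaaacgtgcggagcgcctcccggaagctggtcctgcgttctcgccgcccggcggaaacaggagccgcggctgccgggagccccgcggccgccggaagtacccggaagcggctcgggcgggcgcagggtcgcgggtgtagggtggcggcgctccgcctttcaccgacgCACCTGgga
LINC02783: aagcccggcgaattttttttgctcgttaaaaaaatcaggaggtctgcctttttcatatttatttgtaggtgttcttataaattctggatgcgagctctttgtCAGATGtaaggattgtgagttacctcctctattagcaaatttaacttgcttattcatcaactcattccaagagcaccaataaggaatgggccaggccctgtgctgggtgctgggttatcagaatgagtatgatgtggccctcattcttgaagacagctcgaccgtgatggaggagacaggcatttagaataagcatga
LINC00667: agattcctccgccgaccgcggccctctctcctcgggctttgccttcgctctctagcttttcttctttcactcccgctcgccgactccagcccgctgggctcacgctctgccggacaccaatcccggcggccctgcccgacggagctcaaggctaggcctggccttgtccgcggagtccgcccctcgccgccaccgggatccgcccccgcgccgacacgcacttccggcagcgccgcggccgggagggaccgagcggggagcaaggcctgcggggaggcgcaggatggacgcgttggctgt
LINC00526: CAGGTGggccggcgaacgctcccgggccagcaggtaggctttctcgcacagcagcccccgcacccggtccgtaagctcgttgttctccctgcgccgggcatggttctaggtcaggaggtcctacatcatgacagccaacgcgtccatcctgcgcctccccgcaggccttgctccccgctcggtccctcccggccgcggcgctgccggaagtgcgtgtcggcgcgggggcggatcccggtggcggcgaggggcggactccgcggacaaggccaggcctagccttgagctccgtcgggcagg
The windows of LINC00667 and LINC00526 overlap, since these genes start close together on opposite strands. The E-box was found 3 times in the LINC01783 window, once in each of 4 others and not in that of LINC00667. RefSeq windows were matched for 107 of the 169 members. The letters CANNTG, searched on both strands, were in 73.8% of the 107 member windows and in 68.9% of all 27305 windows. Its form CAGCTG was in 23.4% of member windows against 17.7% of all windows, and its form CAGGTG, which shares windows with CANNTG, in 28.0% against 20.6%. GGAAGGAA, a pair of the GGAA units that the Ewing sarcoma fusion protein EWSR1-FLI1 binds in repeats, was in 2.8% of member windows against 3.58% of all. A match of letters is a description and not evidence of binding.

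Most members were scarce. The mean level was 0.5 to 1 CPM for 54 members, 1 to 2 CPM for 39, 2 to 5 CPM for 31, 5 to 10 CPM for 22 and at least 10 CPM for 23. GENCODE release 29 names 131 of the 169 as lincRNA, 15 as processed transcript and 11 as antisense, and 1, despite its symbol, as protein coding. The bounds of 17 overlapped a protein coding gene, on the opposite strand for 8 of them. Because the strand setting of the counting is not known, the values of these 17 are uncertain. Summed over all members, the level was 944 to 963 CPM in clone 1, 1050 to 1060 CPM in clone 2, 877 to 919 CPM in rescue and 752 to 762 CPM in wild-type libraries. No group's range met another's, and wild-type was the lowest.

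The wild-type mean was the lowest of the 4 group means for 78 members (46.2%), the clone 1 mean for 44, the rescue mean for 32 and the clone 2 mean for 15. The highest mean was in clone 2 for 70 members, in clone 1 for 49, in rescue for 35 and in wild-type for 15. A low wild-type mean was common among other long RNA genes too, where it was the lowest for 45.6% of 1108, against 32.1% of all genes tested. The lowest mean was in clone 1, rescue and clone 2 for 25.5%, 18.6% and 10.3% of those long RNA genes. Among all genes it was 28.2%, 20.7% and 19%. The highest mean was in clone 2 for 40.2% of the other long RNA genes, near the 41.4% of members, against 25.2% of all genes. For clone 1, rescue and wild-type the highest mean shares were 25.4%, 21% and 13.4% of other long RNA genes. Among all genes they were 31.3%, 21.1% and 22.4%. In the joint test of the 4 groups, 139 members (82.2%) differed at an adjusted p under 0.05, against 83.3% of all 17084 genes tested and 68.8% of the 1108 other long RNA genes.

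**Figure D1:**
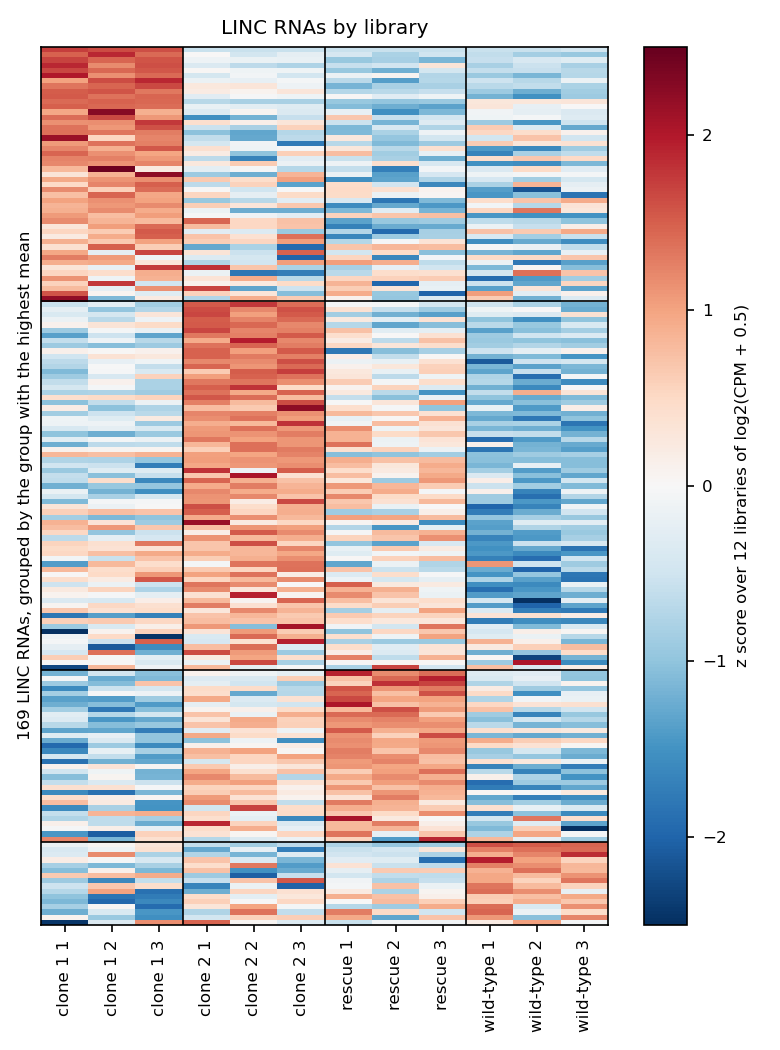
Levels of the 169 LINC genes (rows) in the 12 libraries (columns), as z scores of log2(CPM + 0.5) over the libraries, red above and blue below a gene's mean. Rows are grouped by the group with the highest mean; the blocks hold 49 genes for clone 1, 70 for clone 2, 35 for rescue and 15 for wild-type.

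In the heatmap, the block highest in clone 2 often had raised rescue values too, as seen by eye and not counted. Lower means in the other groups of each block follow from the ordering of the rows by their highest mean.

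The 10 members with the highest mean levels were LINC00963, LINC00665, LINC02593, LINC00355, LINC00659, LINC02762, LINC01547, LINC02210, LINC00667 and LINC01128, between 85.7 and 21.1 CPM. Per kilobase of annotated exon the order was different, with 67.2 CPM per kb for LINC00659, 17.4 for LINC00355, 12.3 for LINC01547, 6.97 for LINC00665 and 6.51 for LINC00963. The exons of LINC00659 in GENCODE 29 span only 540 bases and RefSeq starts the gene further upstream, so its level per length is uncertain.

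LINC00963 (chr9:129483451-129513686 on hg38), first described in prostate cancer, was the most abundant member. It had 99.8, 102 and 97.3 CPM in clone 1 libraries, 106, 104 and 104 CPM in clone 2, 94.8, 89.4 and 89.9 CPM in rescue and 45.2, 48.1 and 47.3 CPM in wild-type libraries. All 9 clone and rescue libraries were well above wild-type. The log2 fold change against wild-type was 1.04 ± 0.04 (SE) in clone 1 (adjusted p = 2.7e-24) and 1.11 ± 0.04 in clone 2 (adjusted p = 8.24e-25). Rescue libraries remained at 0.92 above wild-type and were lower than clone 2 by a log2 change of only -0.18 (adjusted p = 0.000102). The gene nearest to it, NTMT1, whose protein methylates the amino end of other proteins, differed by -0.02 and 0.00 in the clones.

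LINC00659 (chr20:62774128-62775412) was high in both clones and low in rescue. It had 52.8, 49.8 and 54.4 CPM in clone 1 libraries, 61.4, 60.0 and 71.8 CPM in clone 2, 13, 13.5 and 15.1 CPM in rescue and 13.3, 14.8 and 15.4 CPM in wild-type libraries. The rescue and wild-type libraries overlapped, and both lay far below the clones. Against wild-type the log2 fold change was 1.80 ± 0.068 in clone 1 and 2.09 ± 0.067 in clone 2 (adjusted p = 9.88e-25 and 8.76e-27). In rescue libraries it was -2.20 ± 0.066 against clone 2 (adjusted p = 7.35e-27), and -0.11 ± 0.082 against wild-type (adjusted p = 0.278). NTSR1, the receptor of the peptide neurotensin, lies 11357 bases away on the other strand. It was higher by 1.08 in clone 1 and 2.49 in clone 2 and lower by -1.87 in rescue against clone 2, all log2 fold changes past the threshold.

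Among the other abundant members, LINC00665 (chr19:36313067-36331718) was high in clone 1 alone, with 73.4, 69.5 and 71.4 CPM in clone 1 libraries, 46.7 to 47.3 CPM in clone 2, 36.9 to 39.8 CPM in rescue and 42.4 to 45.4 CPM in wild-type libraries. Its log2 fold change was 0.65 in clone 1 (adjusted p = 2.95e-16) and 0.04 in clone 2 (adjusted p = 0.508). LINC02593 was highest in rescue, with 54.6 to 62.6 CPM there against 42.0 to 44.4 CPM in clone 2 and 36.3 to 41.5 CPM in wild-type, a log2 fold change of 0.44 against clone 2. SAMD11, 2912 bases from LINC02593 on the other strand, was higher in rescue than in clone 2 by 1.25. It was lower in clone 2 than in wild-type by -1.09 (adjusted p = 2.14e-21), where LINC02593 differed by 0.07 (adjusted p = 0.256), and lower in clone 2 than in clone 1 by -0.96, where LINC02593 was higher by 0.21. LINC02762 had 41.2 to 43.6 CPM in clone 1, 35.9 to 42.0 CPM in clone 2, 21.2 to 26 CPM in rescue and 25.4 to 28.6 CPM in wild-type libraries. It rose in both clones (0.58 and 0.43) and was lower in rescue than in clone 2 (-0.72). LINC02210, which overlaps its read-through gene with CRHR1 so that reads of these can be shared, was 0.23 higher in clone 1 and lower in rescue than in clone 2 (-0.46).

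**Figure D2:**
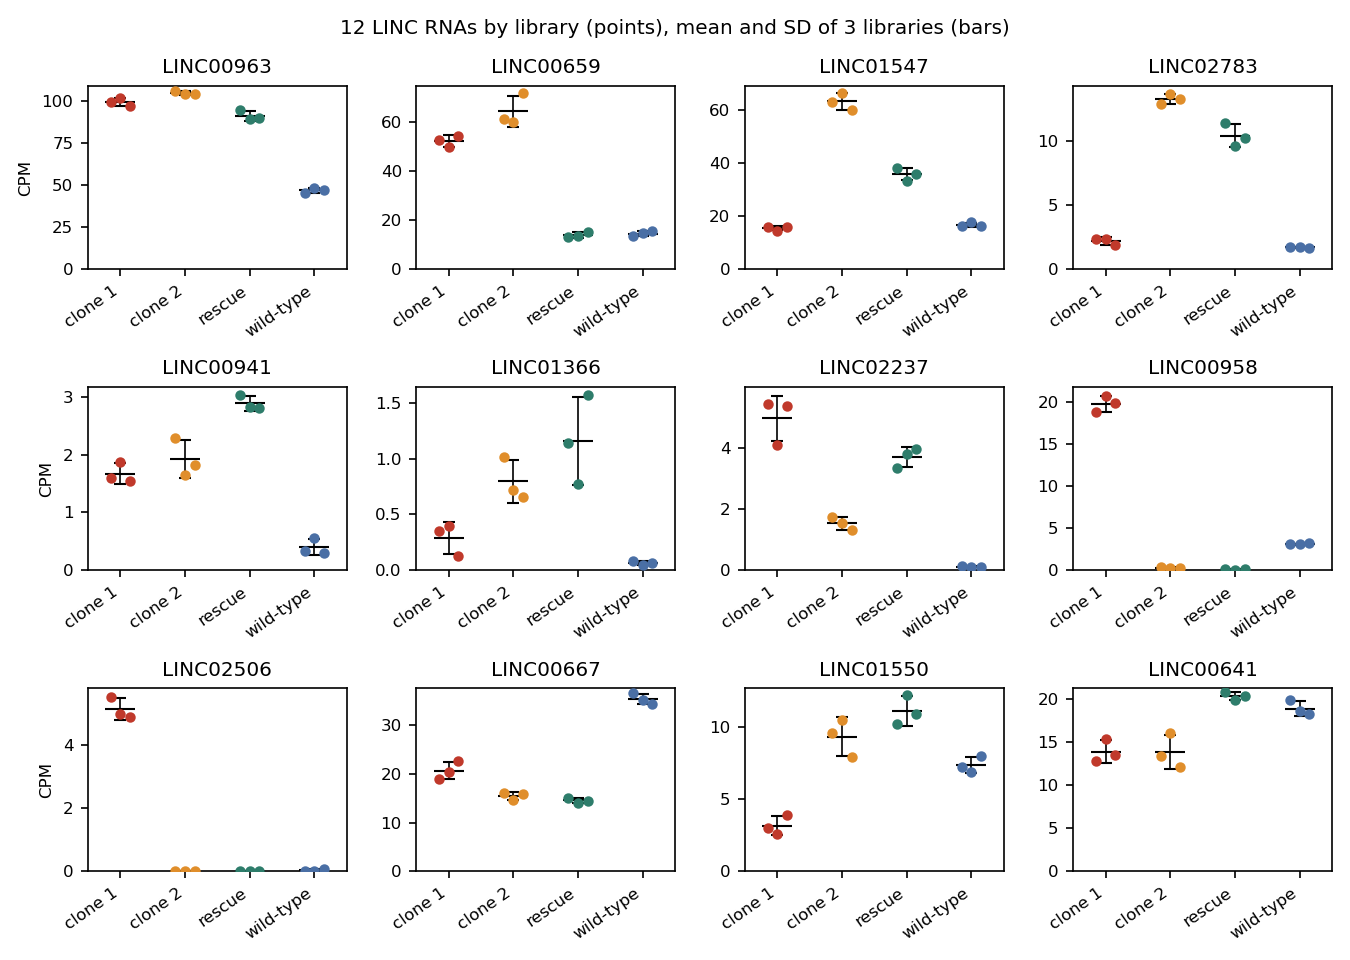
CPM of 12 LINC genes by library (points), with the mean and SD of the 3 libraries of each group (bars), each panel on its own linear axis from 0. LINC00659 was high in both clones and back near wild-type in rescue, LINC01547 and LINC02783 were high in clone 2 and rescue, and LINC00667 was high in wild-type.

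The plot of 12 genes by library also shows how small the spread within a group was for the abundant members beside the differences between groups.

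In clone 1, 59 members (34.9%) were higher than in wild-type and 23 (13.6%) lower, against 30.8% and 30.7% of all genes tested. Among 1108 other long RNA genes with a mean of at least 0.5 CPM, 26.8% were higher and 12.7% lower. The share that rose was thus near the background of all genes, the share that fell was below it, and the other long RNA genes had a like low share. The median log2 fold change was 0.29 over members, 0.01 over all genes and 0.13 over the other long RNA genes. Of the members, 35 had a wild-type mean under 0.5 CPM and entered through the other groups, and 22 of these were higher and 0 lower in clone 1. Of the other 134 members, 37 were higher and 23 lower. With a change of at least 2-fold, 30 members were higher and 2 lower, against 9.61% and 4.06% of all genes.

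The largest rise in clone 1 was that of LINC02506 (chr4:31997397-32155406). It had 5.51, 4.96 and 4.86 CPM in clone 1 libraries, no read in the clone 2 and rescue libraries, and 0, 0 and 0.0672 CPM in wild-type libraries. That is 365 reads in clone 1 against 2 reads in wild-type, a ratio of 193 with an exact 95% interval of 52.9 to 1600, which covers counting error only. Against clone 1, clone 2 was at least 117-fold lower, by a floor of 3 reads over the group.

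LINC00958 (chr11:12961842-12989548), also known from bladder cancer, had 18.8, 20.7 and 19.9 CPM in clone 1 libraries and 0.318, 0.206 and 0.187 CPM in clone 2. Rescue libraries had 0.0738, 0.0386 and 0.0768 CPM, and wild-type libraries 3.05, 3.08 and 3.16 CPM. The clones lay on opposite sides of wild-type with no overlap. The log2 fold change was 2.63 ± 0.098 in clone 1 (adjusted p = 6.78e-25) and -3.68 ± 0.243 in clone 2 (adjusted p = 1.35e-16). Between clone 2 and clone 1 it was -6.32 ± 0.164 (adjusted p = 2.75e-30). Rescue was lower than clone 2 by -1.86 (adjusted p = 0.0119), on 5 against 17 reads, and this call was lost without clone 2 replicate 1 (-1.53, adjusted p = 0.112) or without rescue replicate 2 (-1.62, adjusted p = 0.0553). The neighbouring gene TEAD1, a transcription factor of the Hippo pathway, was lower in both clones (-0.42 and -0.65).

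LINC02237, LINC00319, LINC01854 and LINC01694 also had their highest levels in clone 1. The wild-type means of LINC02506, LINC02237, LINC00319 and LINC01694 were under 0.5 CPM, so these genes became members only through groups where they are higher. LINC02237 had 5.41, 4.10 and 5.36 CPM in clone 1 libraries, 1.73, 1.54 and 1.31 CPM in clone 2, 3.32, 3.79 and 3.95 CPM in rescue and 0.123, 0.0918 and 0.101 CPM in wild-type libraries. Its log2 fold change was 5.43 ± 0.284 in clone 1 and 3.76 ± 0.374 in clone 2 (adjusted p = 6.32e-20 and 1.81e-11), on 8 reads in wild-type. It also rose in rescue against clone 2, by 1.27 ± 0.172 (adjusted p = 1.09e-07). LINC00319 averaged 3.78 ± 0.749 CPM in clone 1, 0.756 ± 0.193 CPM in clone 2, 0.492 ± 0.127 CPM in rescue and 0.348 ± 0.0947 CPM in wild-type (SD, n = 3 each), with a log2 fold change of 3.41 in clone 1 and 1.12 in clone 2, the second lost as a call without clone 2 replicate 1 (0.87, adjusted p = 0.0763). LINC01854 averaged 7.25 ± 0.726 CPM in clone 1, 2.52 ± 0.247 CPM in clone 2, 1.10 ± 0.0803 CPM in rescue and 0.749 ± 0.174 CPM in wild-type, and rose by 3.19 in clone 1 and 1.67 in clone 2. For both genes clone 2 was intermediate, and rescue did not differ from wild-type past the threshold (0.48 and 0.49, adjusted p = 0.295 and 0.0889). LINC01694 had 1.70, 1.83 and 2.12 CPM in clone 1 and 0.168 to 0.230 CPM in wild-type libraries, a log2 fold change of 3.18. PCBP3, a gene for an RNA-binding protein 40638 bases from LINC01694, was higher in clone 1 by 3.42 and differed by 0.03 in clone 2 (adjusted p = 0.756), where LINC01694 rose by 1.60.

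The falls in clone 1 were smaller. LINC01550 (chr14:97925610-97978124) had 3.01, 2.59 and 3.86 CPM in clone 1 libraries, 9.57, 10.5 and 7.90 CPM in clone 2, 10.2, 12.2 and 10.9 CPM in rescue and 7.20, 6.89 and 7.97 CPM in wild-type libraries. It was lower in clone 1 by -1.28 ± 0.132 and higher in clone 2 by 0.28 ± 0.107 (adjusted p = 4.08e-11 and 0.0231). Its clone 2 and wild-type libraries overlapped, and the call in clone 2 was lost without clone 2 replicate 1 (0.24) or 2 (0.19) or wild-type replicate 1 (0.24) or 2 (0.23). LINC00355 had 23.9, 27.3 and 24.8 CPM in clone 1 against 45.4, 46.2 and 43.3 CPM in wild-type libraries, a change of -0.87 ± 0.051, and clone 2 and rescue libraries lay between 48.4 and 52.4 CPM. It lies on chromosome 13, where the median of 285 genes was -0.28 in clone 1. LINC02979, 295 bases from IMPA2 on the other strand, had 0.288 to 0.457 CPM in clone 1 against 0.689 to 0.874 CPM in wild-type (-1.11, adjusted p = 0.00481). LINC00888, a transcribed pseudogene in GENCODE 29, was lower in clone 1 (-0.77) with 4.82 to 5.76 CPM there against 8.19 to 8.77 CPM in wild-type.

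In clone 2, 87 members (51.5%) were higher than in wild-type and 21 (12.4%) lower, against 31.5% and 30.6% of all genes tested and 41.6% and 10.6% of the other long RNA genes. The median log2 fold change was 0.45 over members, 0.01 over all genes and 0.33 over the other long RNA genes. Of the 35 members that were under 0.5 CPM in wild-type, 30 were higher and 0 lower, and of the other 134, 57 were higher and 21 lower. With a change of at least 2-fold, 52 were higher and 5 lower, against 10.4% and 2.87% of all genes. Both clones were compared with the same 3 wild-type libraries.

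**Figure D3:**
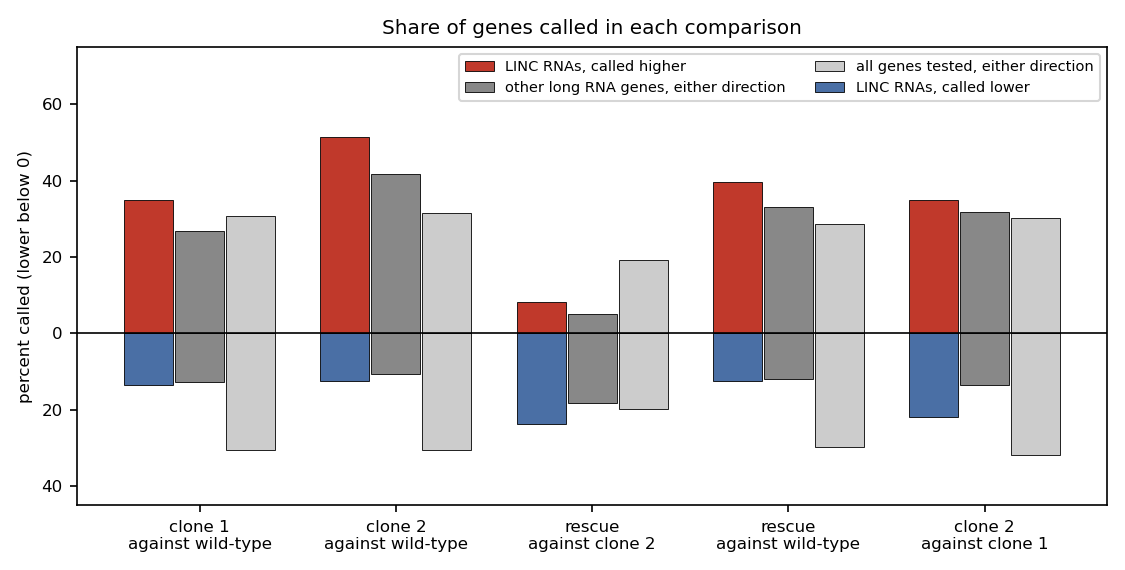
Percent of LINC genes (red higher, blue lower), of 1108 other long RNA genes (dark grey) and of all genes tested (light grey) that were called in each of the 5 comparisons, with the higher share above 0 and the lower share below. In clone 2 against wild-type 51.5% of LINC genes were higher, against 41.6% of the other long RNA genes and 31.5% of all genes.

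In the plot of shares called, the share of LINC genes that were lower lies below that of all genes in each of the 3 comparisons with wild-type, and so does that of the other long RNA genes.

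LINC01547 (chr21:44932814-44939913) set clone 2 apart. It had 63.1, 66.4 and 60.1 CPM in clone 2 libraries, against 15.8, 14.5 and 15.9 CPM in clone 1. Rescue libraries had 38.0, 33.3 and 35.9 CPM and wild-type libraries 16.3, 17.6 and 16.2 CPM. Clone 2 was above all others, rescue lay in between, and clone 1 was just under wild-type. The log2 fold change in clone 2 was 1.87 ± 0.057 against wild-type (adjusted p = 2.28e-27) and 2.03 ± 0.058 against clone 1 (adjusted p = 7.74e-29). In clone 1 it was -0.16 ± 0.07 against wild-type (adjusted p = 0.0407), a call lost without clone 1 replicate 2 (-0.11) or wild-type replicate 2 (-0.12). Its start lies 97 bases from SLX9 on the other strand, and SLX9 differed by 0.10 in clone 1 and -0.04 in clone 2, neither past the threshold.

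LINC02783 (chr1:17189783-17197617) had 12.9, 13.7 and 13.3 CPM in clone 2 libraries against 2.36, 2.34 and 1.87 CPM in clone 1. Rescue libraries had 11.4, 9.62 and 10.2 CPM and wild-type libraries 1.73, 1.70 and 1.68 CPM. Clone 2 and rescue were both far above the others. The rise in clone 2 against wild-type was 2.91 ± 0.119 (adjusted p = 3.11e-23), and rescue was lower than clone 2 by -0.33 ± 0.083 (adjusted p = 0.00128). PADI1, an enzyme that turns arginine in proteins into citrulline, lies 7509 bases away on the same strand. Its log2 fold change was 2.36 in clone 2, 1.12 in clone 1 and -1.33 in rescue against clone 2, so it was lower in rescue by more than LINC02783 was, though the difference between the genes was not tested.

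LINC01208 (chr3:176604143-176635532) had 1.41, 1.70 and 1.26 CPM in clone 2 libraries and 1.99, 2.13 and 2.15 CPM in rescue. Clone 1 libraries had 0.200, 0.0359 and 0.0830 CPM and wild-type libraries 0.206, 0 and 0.0336 CPM, and these overlapped. It rose by 4.06 ± 0.446 in clone 2 (adjusted p = 2.23e-10), on 100 reads against 6 reads, and by 0.24 ± 0.821 in clone 1 (adjusted p = 0.819). LINC01366 had 0.655 to 1.02 CPM in clone 2, 0.125 to 0.395 CPM in clone 1, 0.773 to 1.57 CPM in rescue and 0.0459 to 0.0823 CPM in wild-type libraries. Its log2 fold change was 3.49 in clone 2 and 2.02 in clone 1, and the call in clone 1 was lost without clone 1 replicate 2 (1.68, adjusted p = 0.0681). KCNIP1, which encodes a protein that binds potassium channels, lies 19608 bases away and was higher by 3.31 in clone 2 and 1.56 in clone 1. LINC01411 averaged 0.957 ± 0.0936 CPM in clone 2 and 0.0825 ± 0.106 CPM in wild-type (SD, n = 3 each), a rise of 3.27, and LINC00479 averaged 1.34 ± 0.316 CPM in clone 2 and 0.130 ± 0.0366 CPM in wild-type, a rise of 3.26. With wild-type means under 0.5 CPM, LINC01208, LINC01366, LINC01411 and LINC00479 became members only through groups where they are higher. LINC02043 had 6.04 to 6.88 CPM in clone 2 and 0.827 to 1.12 CPM in clone 1 (2.66 in clone 2 against clone 1), and LINC01252 had 1.96 to 2.29 CPM in clone 2 and 0.200 to 0.539 CPM in clone 1 (2.62).

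**Figure D4:**
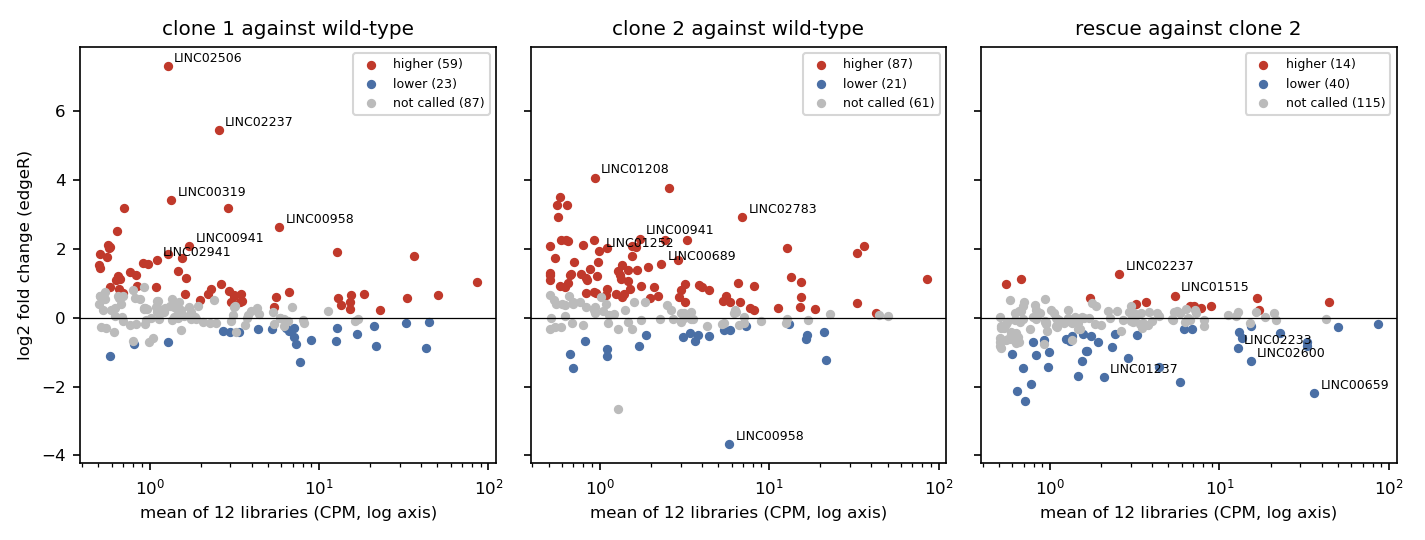
Log2 fold change of the 169 LINC genes (vertical axis) against their mean level over 12 libraries in CPM (horizontal log axis), for clone 1 and clone 2 against wild-type and for rescue against clone 2, red and blue for calls and grey for the rest. Most of the large changes were at low levels; the fitted value of LINC02506 rests on 2 wild-type reads and is not a measured fold.

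In the plot of fold change against level, 59, 87 and 14 members are drawn as higher and 23, 21 and 40 as lower.

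Fewer members fell in clone 2. Besides LINC00958 and LINC00667, the largest falls were those of LINC02709, LINC00960 and LINC01315. LINC02709 (chr11:9754770-9759533) had 0.282, 0.206 and 0.374 CPM in clone 2, 1.35, 1.33 and 1.29 CPM in clone 1 and 0.864, 0.826 and 0.672 CPM in wild-type libraries. It was lower in clone 2 (-1.47) and higher in clone 1 (0.71), the second lost as a call without wild-type replicate 3 (0.58, adjusted p = 0.0957). In rescue it had 0.258 to 0.576 CPM and was lower than wild-type by -1.02 (adjusted p = 0.00702), a call lost without rescue replicate 1 (-0.79, adjusted p = 0.0584). LINC00960, within the bounds of the zinc finger gene ZNF717 on the other strand, averaged 0.661 ± 0.253 CPM in clone 2 and 1.46 ± 0.374 CPM in wild-type (-1.10). LINC01315 averaged 0.285 ± 0.125 CPM in clone 2, 1.24 ± 0.161 CPM in clone 1, 0.590 ± 0.256 CPM in rescue and 0.559 ± 0.0486 CPM in wild-type. Its fall in clone 2 (-1.05, adjusted p = 0.0252) was lost without clone 2 replicate 1 (-0.75, adjusted p = 0.156), clone 2 replicate 2 (-1.02, adjusted p = 0.053) or wild-type replicate 2 (-1.01, adjusted p = 0.0536). Its rise of 1.11 in rescue against clone 2 was lost without clone 2 replicate 1 (0.81), clone 2 replicate 2 (1.08) or rescue replicate 1 (0.70).

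All 6 knockout libraries lay above all 3 wild-type libraries for 51 members (30.2%), against 20.7% of all genes and 23.7% of the other long RNA genes. They all lay below for 7 members (4.14%), against 14.6% and 3.97%. By the smaller of both clones' changes, the members that rose most in both were LINC02237, LINC00479, LINC01783, LINC00941, LINC01134 and LINC01366. All 6 had a wild-type mean under 0.5 CPM, so they became members only through the other groups, where they are high. The count of 51 includes such members. LINC00941 (chr12:30755167-30802602), a transcript known from keratinocyte differentiation, had 1.60, 1.87 and 1.54 CPM in clone 1, 2.29, 1.65 and 1.82 CPM in clone 2, 3.03, 2.82 and 2.80 CPM in rescue and 0.329, 0.551 and 0.303 CPM in wild-type libraries. Its log2 fold change was 2.07 ± 0.274 in clone 1 and 2.29 ± 0.266 in clone 2 (adjusted p = 1.65e-08 and 9.5e-10), and rescue was higher than clone 2 by 0.57 (adjusted p = 0.00729). CAPRIN2, 216 bases away on the other strand, was higher by 0.29 and 0.23 in the clones. LINC01783 had 0.539 to 0.551 CPM in clone 1, 0.741 to 1.13 CPM in clone 2 and 0.0412 to 0.184 CPM in wild-type libraries (2.10 and 2.91). LINC01134, which starts 79 bases from C1orf174, had 0.551 to 0.955 CPM in clone 1, 0.608 to 1.08 CPM in clone 2 and 0.101 to 0.275 CPM in wild-type libraries (2.05 and 2.25), while C1orf174 differed by -0.06 and -0.10, neither past the threshold. LINC01366 was lost as a call in clone 1 without clone 1 replicate 2 (1.68, adjusted p = 0.0681).

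LINC00667 (chr18:5237826-5246508) led the members that were lower in both clones. It had 19, 20.5 and 22.6 CPM in clone 1 libraries, 16.1, 14.6 and 15.8 CPM in clone 2, 15.1, 14.1 and 14.5 CPM in rescue and 36.6, 35.3 and 34.5 CPM in wild-type libraries. All 9 clone and rescue libraries lay below wild-type. The log2 fold change was -0.82 ± 0.059 in clone 1, -1.24 ± 0.062 in clone 2 and -1.32 ± 0.061 in rescue, each against wild-type (adjusted p = 1.49e-15, 1.96e-20 and 2.22e-21). Rescue differed from clone 2 by -0.08 (adjusted p = 0.42). LINC00526, whose promoter window overlaps that of LINC00667, averaged 0.639 ± 0.162 CPM in clone 1, 0.655 ± 0.289 CPM in clone 2, 0.888 ± 0.130 CPM in rescue and 1.08 ± 0.101 CPM in wild-type (SD, n = 3 each). Its changes of -0.76 in clone 1 (adjusted p = 0.0217) and -0.68 in clone 2 (adjusted p = 0.037) were past the threshold. The call in clone 1 was lost without clone 1 replicate 1 (-0.68) or 3 (-0.64) or wild-type replicate 2 (-0.68), and that in clone 2 without clone 2 replicate 2 (-0.52) or 3 (-0.54) or wild-type replicate 2 (-0.61). Both genes lie on chromosome 18, where the median of 213 genes was -0.34 in each clone, and the part of this shift in their values was not tested. LINC00641 (chr14:21200079-21206900) had 12.8 to 15.3 CPM in clone 1, 12.1 to 16 CPM in clone 2, 19.9 to 20.8 CPM in rescue and 18.2 to 19.8 CPM in wild-type libraries. It was lower by -0.48 and -0.51 in the clones, higher in rescue than in clone 2 by 0.58 (adjusted p = 4.91e-08), and differed by 0.07 between rescue and wild-type (adjusted p = 0.407). LINC01128 was lower by -0.25 in clone 1 and -0.41 in clone 2. LINC00888 was lower by -0.77 in clone 1 and -0.23 in clone 2, the second a call lost without clone 2 replicate 2 (-0.19) or wild-type replicate 2 (-0.24) or 3 (-0.22). LINC00680 was lower by -0.40 in clone 1, while its -0.22 in clone 2 was not past the threshold (adjusted p = 0.0546) and passed it without clone 1 replicate 1 or 3 (-0.24 each) or any 1 rescue library (-0.24 each), and with no filter on low counts (-0.26).

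In rescue against clone 2, 14 members (8.28%) were higher and 40 (23.7%) lower, against 19.3% and 19.9% of all genes tested and 5.05% and 18.3% of the other long RNA genes. The median log2 fold change was -0.13 over members, 0.00 over all genes and -0.12 over the other long RNA genes. With a change of at least 2-fold, 2 were higher and 15 lower, against 0.48% and 4.47% of all genes. Besides LINC00659, the largest falls were those of LINC01694, LINC00479, LINC00504 and LINC00958. LINC01694 had 0.0369, 0.155 and 0.154 CPM in rescue against 0.706, 0.721 and 0.468 CPM in clone 2, a change of -2.41 ± 0.456 (adjusted p = 3.83e-05). LINC00479 had 0.295, 0.155 and 0.461 CPM in rescue against 1.59, 1.44 and 0.982 CPM in clone 2, a change of -2.12 ± 0.323 (adjusted p = 1.03e-06). LINC00504 had 0.148, 0.348 and 0.384 CPM in rescue against 1.06, 0.875 and 1.5 CPM in clone 2, a change of -1.94 ± 0.351 (adjusted p = 2.04e-05). None of these 3 overlapped between the groups. The call of LINC00958 was lost without clone 2 replicate 1 (-1.53) or rescue replicate 2 (-1.62). The rescue means of LINC01694, LINC00479, LINC00504 and LINC00958 were under 0.5 CPM, so these genes became members only through other groups.

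The rises in rescue against clone 2 were led by LINC02237, LINC01315, LINC01096, LINC01515 and LINC00641. LINC01515 had 6.16, 6.34 and 6.26 CPM in rescue, 4.09, 4.53 and 3.55 CPM in clone 2, 5.81, 7.23 and 6.06 CPM in clone 1 and 5.31, 5.19 and 4.71 CPM in wild-type libraries. It was higher in rescue than in clone 2 by 0.64 ± 0.118 (adjusted p = 2.7e-05), lower in clone 2 than in wild-type by -0.37 and higher in clone 1 by 0.30. The call in clone 2 was lost without clone 2 replicate 3 (-0.30, adjusted p = 0.0502), and that in clone 1 without clone 1 replicate 2 (0.20) or wild-type replicate 3 (0.23). LINC01096, 1025 bases from the homeobox gene NKX3-2, had 0.738 to 1.23 CPM in rescue against 0.412 to 0.702 CPM in clone 2, a rise of 0.97 (adjusted p = 0.014). That call was lost without clone 2 replicate 1 (0.83) or 2 (0.88) or rescue replicate 3 (0.80), and the call of LINC01315 (1.11) without clone 2 replicate 1 (0.81) or 2 (1.08) or rescue replicate 1 (0.70).

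Against wild-type, 67 members (39.6%) were higher in rescue and 21 (12.4%) lower, against 28.5% and 29.9% of all genes tested and 33.0% and 12.1% of the other long RNA genes. The median log2 fold change was 0.27 over members, 0.00 over all genes and 0.19 over the other long RNA genes. Of the 35 members that were under 0.5 CPM in wild-type, 22 were higher and 0 lower. Of the other 134, 45 were higher and 21 lower. With a change of at least 2-fold, 31 were higher and 5 lower, against 6.78% and 3.97% of all genes. The largest rises were those of LINC02237 (5.02), LINC01208 (4.60), LINC01366 (4.0), LINC01411 (3.14) and LINC00941 (2.86), all of them under 0.5 CPM in the wild-type mean. The largest falls were those of LINC00958 (-5.54), LINC00667 (-1.32), LINC00960 (-1.15), LINC02904 (-1.08) and LINC02709 (-1.02), the last lost without rescue replicate 1 (-0.79). LINC02904, formerly C8orf31, averaged 0.619 ± 0.0800 CPM in rescue and 1.28 ± 0.107 CPM in wild-type (SD, n = 3 each).

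Between the clones, 59 members (34.9%) were higher in clone 2 than in clone 1 and 37 (21.9%) lower, against 30.3% and 31.9% of all genes tested and 31.9% and 13.5% of the other long RNA genes. The median log2 fold change was 0.25 over members, 0.00 over all genes and 0.18 over the other long RNA genes. The largest differences upward were those of LINC01208 (3.82), LINC02043 (2.66), LINC01252 (2.62), LINC02783 (2.59) and LINC01547 (2.03). Downward, they were those of LINC02506, LINC00958 (-6.32), LINC00319 (-2.29), LINC02709 (-2.18) and LINC01315 (-2.17). With a change of at least 2-fold, 22 were higher and 13 lower, against 7.29% and 6.64% of all genes. The clone 1 mean was under 0.5 CPM for 13 members, LINC01208 and LINC01252 among them. The clone 2 mean was under 0.5 CPM for 6 members, among them LINC02506, LINC00958, LINC02709 and LINC01315. Such genes became members only through groups where they are higher.

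Of 25 LINC genes listed because other studies have described them, 11 were members. Besides LINC00963, LINC00665, LINC00667 and LINC00526, these were LINC01116, LINC00839, LINC01089, LINC00662, LINC00461, LINC00467 and LINC00342. LINC01116, which lies downstream of the HOXD gene cluster, had 24.6, 23.7 and 24.2 CPM in clone 1 libraries, 17.2, 18.1 and 17.8 CPM in clone 2, 18.3, 17.2 and 17.8 CPM in rescue and 14.4, 13.5 and 15.2 CPM in wild-type libraries. It rose by 0.69 in clone 1 and 0.24 in clone 2, with no overlap with wild-type. LINC00839 had 19.1 to 19.6 CPM in clone 1, 11.3 to 11.8 CPM in clone 2, 8.29 to 8.96 CPM in rescue and 11.7 to 13.7 CPM in wild-type libraries, and so was higher in clone 1 (0.56), lower in clone 2 (-0.19, adjusted p = 0.0295) and lower in rescue than in clone 2 (-0.41). Its call in clone 2 was lost without clone 2 replicate 3 (-0.19, adjusted p = 0.0527) or wild-type replicate 1 (-0.15). LINC00467, known as a gene that MYCN represses in neuroblastoma, had 8.34 to 8.51 CPM in clone 1, 6.36 to 7.52 CPM in clone 2, 6.03 to 7.19 CPM in rescue and 4.68 to 5.14 CPM in wild-type libraries (0.74, 0.45 and 0.38 against wild-type). LINC00461, the host transcript of a miR-9 gene, had 5.39 to 6.21 CPM in clone 1 against 6.34 to 7.90 CPM in wild-type (-0.29, adjusted p = 0.0153) and differed by 0.02 in clone 2 (adjusted p = 0.861). The call in clone 1 was lost without clone 1 replicate 2 (-0.22) or wild-type replicate 1 (-0.20). LINC00342 was higher in clone 1 (0.69) with 4.36 to 6.54 CPM there against 2.99 to 3.25 CPM in wild-type, and differed by -0.05 in clone 2. LINC01089 and LINC00662 were higher in clone 2 by 0.27 and 0.23, and their clone 2 and wild-type libraries overlapped for LINC01089 only. The call of LINC01089 was lost without clone 2 replicate 1 (0.25) or 2 (0.21) or wild-type replicate 1 (0.25) or 3 (0.07). That of LINC00662 was lost without each of 8 libraries in turn, with 0.13 without clone 2 replicate 3 and 0.16 without wild-type replicate 2 as the lowest values.

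No member lay within 1 Mb of ID2. The antisense RNA ID2-AS1, no member by its name, differed by 0.08 in clone 1 (adjusted p = 0.672) and 0.88 in clone 2 (adjusted p = 9.1e-07) against wild-type. Of 50 long RNAs that have names of their own, 43 were in the table and 40 were tested. In clone 1 against wild-type 7 were higher and 11 lower, in clone 2 against wild-type 15 and 9, in rescue against clone 2 3 and 15, in rescue against wild-type 14 and 14, and in clone 2 against clone 1 19 and 10. The shares of all genes called higher and lower were 30.8% and 30.7%, 31.5% and 30.6%, 19.3% and 19.9%, 28.5% and 29.9%, and 30.3% and 31.9% in the same order. TINCR, which promotes keratinocyte differentiation, averaged 9.75 ± 0.377 CPM in clone 1, 21.8 ± 5.1 CPM in clone 2, 7.63 ± 1.23 CPM in rescue and 3.47 ± 0.304 CPM in wild-type (SD, n = 3 each). Its log2 fold change was 1.43 in clone 1, 2.60 in clone 2 and -1.51 in rescue against clone 2. MIAT was lower in clone 1 by -1.77 and higher in clone 2 by 0.70, MIR22HG was higher in clone 2 by 1.41, and MEG3, an imprinted gene, rose by 2.43 in clone 1 and 1.28 in clone 2. H19, an imprinted gene, averaged 6.87 ± 0.616 CPM in clone 1, 0.231 ± 0.038 CPM in clone 2, 0.0257 ± 0.0222 CPM in rescue and 0.226 ± 0.156 CPM in wild-type. It rose by 4.77 in clone 1 and differed by -0.09 in clone 2 (adjusted p = 0.896).

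Members followed their neighbours only in part. For the 116 members whose nearest protein coding gene lay within 100000 bases and was tested, the Spearman correlation across genes between the log2 fold changes of member and neighbour was 0.363 in clone 1 and 0.355 in clone 2 against wild-type, 0.206 in rescue against clone 2, 0.413 in rescue against wild-type and 0.441 in clone 2 against clone 1. Over 11067 such pairs of all genes the values were 0.316, 0.307, 0.204, 0.325 and 0.316 in the same order. The same sign was shared by 54.3% of member pairs in clone 1, against 61.8% of all pairs. Within 100000 bases the members thus had a higher correlation than all genes, though hardly so in rescue against clone 2. Within 10000 bases it was lower than that of all genes in clone 1 (0.319 against 0.345) and clone 2 (0.246 against 0.337), both against wild-type. It was higher in rescue against clone 2 (0.227 against 0.214), rescue against wild-type (0.504 against 0.351) and clone 2 against clone 1 (0.362 against 0.331). With chromosome medians taken off, it was higher in clone 1 (0.287 against 0.283) and clone 2 (0.286 against 0.238). It was then lower in rescue against clone 2 alone (0.176 against 0.186). The share of equal signs within 100000 bases was also lower in clone 2 against wild-type (56.0% against 60.2%) and in both rescue comparisons. It was higher in clone 2 against clone 1 (62.1% against 60.0%). None of these differences was tested. Genes are not independent replicates, and both values of a pair come from the same libraries.

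**Figure D5:**
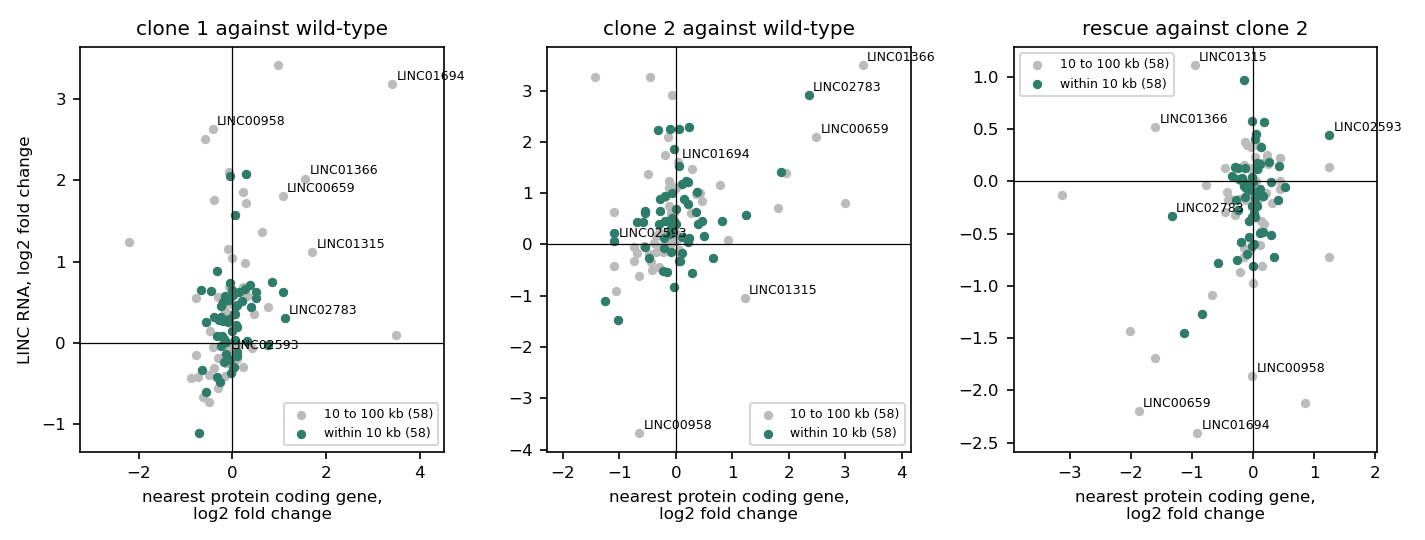
Log2 fold change of a LINC gene (vertical axis) against that of its nearest protein coding gene (horizontal axis), for 58 pairs within 10 kb (green) and 58 pairs at 10 to 100 kb (grey), in clone 1 and clone 2 against wild-type and rescue against clone 2. LINC00659 lies with its neighbour NTSR1 at the upper right in both clones and at the lower left in rescue, while most pairs lie near 0 on the horizontal axis.

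In the plot of neighbours, LINC01366 and LINC02783 lie at the upper right in clone 2 with KCNIP1 and PADI1, and LINC00958 has the lowest value in clone 2 at a TEAD1 value of -0.65. In rescue against clone 2, KCNIP1 was lower by -1.60, while LINC01366 differed by 0.52 (adjusted p = 0.156).

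The chromosomes named here were picked after all had been seen. The 9 members on chromosome 12 were all higher in clone 2 than in wild-type, against 51.5% of all members, 41.6% of the other long RNA genes and 31.5% of all genes. Their median log2 fold change was 1.28 against -0.01 for the 807 genes tested there. In wild-type, LINC00941 had a mean of 0.394 CPM, LINC02367 of 0.346 CPM and LINC02882 of 0.235 CPM, below the 0.5 CPM that members had to reach over all libraries. Of the 8 members on chromosome 21, 6 were higher and 1 lower in clone 2, with a median of 1.14 against 0.10 for 154 genes. On all chromosomes, the same 51.5% of members and 31.5% of genes were higher, and 12.4% and 30.6% were lower. Members on a single chromosome are few, and no test was made of these counts. On chromosome 11 the median of 788 genes was -0.58 in clone 2 and -0.54 in rescue, both against wild-type. Its 6 members had a median of -0.39 in clone 2 (2 higher, 3 lower) and -0.55 in rescue (0 higher, 5 lower), LINC00958 and LINC02709 among them. On all chromosomes, 12.4% of members were lower in either comparison, against 30.6% and 29.9% of all genes tested. The shares that were higher were 51.5% and 39.6% of members and 31.5% and 28.5% of all genes tested. On chromosome 18 the 5 members had a median of -0.76 in clone 1 and -0.26 in clone 2. The part of these shifts of whole chromosomes in the values of single members was not tested.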

How the data were processed

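Polyadenylated RNA of TC71 cells was measured in 12 libraries, 4 groups of 3, made with a stranded mRNA kit, per the labels' protocols; groups came from sample titles. The deposited values were raw counts of reads per gene, which the authors gave under Ensembl identifiers for 21569 genes. FastQC, STAR and hg38 are named in the submitters' processing notes, without versions. For the read counter, strand setting and annotation, these were not given in the sources used here.

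Symbols were looked up in a gene name table (20717 identifiers matched), coordinates and types from GENCODE 29, and promoters from RefSeq (GRCh38.p14). CPM are counts over the column total. Log2 fold changes, with their SE, and p-values came from edgeR 4.0.16 in R 4.3.3 (quasi-likelihood test, TMM scaling, genes kept by expression with a minimum count of 10, 1 mean per group, all 12 libraries, 8 residual degrees of freedom), Benjamini-Hochberg adjusted over 17084 genes. Common biological variation amounted to a coefficient of 2.95%. Higher and lower mean called, at an adjusted p under 0.05. All 169 members passed the filter. The procedure was tested on simulated counts. No library repeated another of its group within sampling noise (chi-square over degrees of freedom 1.54 to 3.16). Intervals and floors (3 counts over a group) cover counting error only. Alternatives were DESeq2 (1.42.0) as test or scaling, upper quartile scaling, other filters, only the groups compared, a replicate block, a 2-fold requirement, other member rules and leaving out each library.

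Members and lists were chosen with earlier results of these data known. Named members were, by rule, the 5 largest rises and 5 largest falls per comparison among calls with no overlap between groups, the 10 most abundant, up to 6 of each direction in both clones, those listed as well studied and those next to the threshold; of the other long RNAs, up to 4 per comparison, plus ID2-AS1, chosen after its values were seen.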

Additional observations from a re-analysis of the deposited data

Results flagged for a closer look

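Among the named members only, 8 were flagged because both clones differed from wild-type past the threshold in opposite directions. Clone 2 also had to differ from clone 1 past the threshold in the edgeR fit, so that difference is no further test. Other members and all genes were not searched for this pattern. Clone 2 was higher than clone 1 for LINC00355 (log2 difference 0.99), LINC01547 (2.03) and LINC01550 (1.56). It was lower than clone 1 for LINC00839 (-0.75), LINC00958 (-6.32), LINC01515 (-0.67), LINC02709 (-2.18) and LINC01315 (-2.17). LINC00958 and LINC02709 lie on chromosome 11, where the median of all genes was -0.55 between clone 2 and clone 1, and LINC00355 on chromosome 13, where it was 0.41. The part of these shifts was not tested. The difference between the clones kept its call without each library in turn for all 8. The smaller of the 2 changes against wild-type did not for LINC00355 (0.13 in clone 2, 0.08 without wild-type replicate 3), LINC01547 (-0.16 in clone 1, -0.11 without clone 1 replicate 2), LINC01550 (0.28 in clone 2, 0.19 without clone 2 replicate 2), LINC00839 (-0.19 in clone 2, -0.15 without wild-type replicate 1), LINC01515 (0.30 in clone 1, 0.20 without clone 1 replicate 2), LINC02709 (0.71 in clone 1, 0.58 without wild-type replicate 3) and LINC01315 (-1.05 in clone 2, -0.75 without clone 2 replicate 1). Only LINC00958 kept both calls in every such fit.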

How the results depend on the processing

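A change of at least 2-fold left 30 higher and 2 lower members in clone 1 against wild-type, 52 and 5 in clone 2 against wild-type, 2 and 15 in rescue against clone 2, 31 and 5 in rescue against wild-type, and 22 and 13 in clone 2 against clone 1. A member threshold of 1 CPM left 39 higher members in clone 1 and 56 in clone 2 against wild-type, by its construction among fewer members. Under the other alternatives for counts (scaling, filters, DESeq2, only the groups compared), and without 1 library, every count of members stayed within 1.5 times its value. Without 1 library, 53 to 60 members were higher and 16 to 25 lower in clone 1, 77 to 87 and 14 to 22 in clone 2, 12 to 17 and 33 to 40 in rescue against clone 2, 61 to 67 and 19 to 22 in rescue against wild-type, and 54 to 59 and 30 to 38 in clone 2 against clone 1. With a replicate block the pairs of counts were 60 and 23, 88 and 22, 15 and 40, 67 and 21, and 60 and 38, and of the named results only that of LINC00680 in clone 2 against wild-type changed its side of the threshold (-0.23, adjusted p = 0.0465). The numbers in the titles did not pair the samples, as the correlations of deviations of same-numbered libraries were between -0.0363 and 0.0518. Of 171 results of named members over the 5 comparisons, 40 calls were lost and 1, LINC00680 in clone 2, was gained under some alternative, and none reversed. DESeq2 also lost the clone 2 calls of LINC00355, LINC00526, LINC00662, LINC00839, LINC00888, LINC01089, LINC01315 and LINC01550 and the clone 1 calls of LINC00526, LINC01515, LINC01547, LINC02593 and LINC02709, all against wild-type. In rescue against clone 2 it lost those of LINC01096 (0.98, adjusted p = 0.0688), LINC01315 (1.11, adjusted p = 0.0651) and LINC01550 (0.27). Upper quartile scaling lost the clone 2 calls of LINC00526 (-0.62), LINC00839 (-0.12) and LINC00888 (-0.16) against wild-type. Members named by GENCODE 29, members that overlap no protein coding gene and members outside chromosomes 11, 13 and 18, chosen after seeing the data, left each count within 1.5 times as well. For members under 1 CPM, the low number of reads per group limits the precision.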
